A study of Mus musculus with 5 samples.

Results

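The genes of the MHC class II presentation pathway were chosen by symbol from the deposited gene table, as the chains, chaperones and transactivator of the pathway. The rule names genes and no measured value, though earlier results of these data were known when it was written. There were 8 of 24419 gene rows, namely H2-Aa, H2-Ab1, H2-Eb1, Cd74, H2-DMa, H2-DMb1, H2-DMb2 and Ciita. All 5 samples were bone marrow-derived macrophages (BMMs) of C57BL/6 mice, written C57BL6/J in the series' design text, grown for 5 days with 50 ng/ml M-CSF, the growth factor of macrophages, and activated with 100 ng/ml LPS, a bacterial Toll-like receptor ligand. For the next 18 h, 2 samples received PBS and 3 received 100 ng/ml recombinant semaphorin 3G (Sema3G), a secreted guidance protein that binds neuropilin-2. The study's methods describe its Sema3G as an Fc-tagged protein from a human kidney cell line, and no group given a control Fc protein is among these samples. The sources used here give neither the age and sex of the mice nor whether the samples were separate cultures or animals, so the p-values measure the spread between these samples, which may be technical. No untreated BMMs were compared here, so the response of the genes to LPS itself is not shown. The study used MHC class II protein as an activation marker of joint macrophages, and the comparison here asks whether Sema3G altered the RNA of the pathway.

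MHC class II molecules show peptides from engulfed material to CD4+ T cells. An alpha and a beta chain are assembled in the endoplasmic reticulum around the invariant chain Cd74, which blocks the peptide groove and guides the complex to endosomes. Proteases there trim Cd74 down to the fragment CLIP, and the DM protein exchanges CLIP for a peptide. Transcription depends on Ciita, a coactivator that does not bind DNA but sits on RFX, CREB and NF-Y at the X and Y boxes of the promoters, and that interferon-gamma induces in macrophages. Resting macrophages carry little class II compared with dendritic cells and B cells.

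The promoter letters of the pathway are shown because the genes are known to share the X and Y boxes, and the counts are read against them. RefSeq windows on GRCm38.p6, the assembly also called mm10, from 250 bases before to 50 bases after a start site were given for 5 of the 8 genes (H2-Aa, H2-Eb1, H2-DMa, H2-DMb1 and H2-DMb2) and not for H2-Ab1, Cd74 and Ciita. The stretches below hold 48 bases each, 5′ to 3′ on the strand of the gene. Capitals at the right mark TGATTGG, the Y box letters around the inverted CCAAT bound by NF-Y. Capitals at the left mark AACNNNTGA, part of the X box, or, in H2-Aa, the cyclic AMP response element TGACGTCA.
H2-Aa: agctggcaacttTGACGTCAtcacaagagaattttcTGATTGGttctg
H2-Eb1: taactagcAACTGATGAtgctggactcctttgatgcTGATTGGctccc
H2-DMb1: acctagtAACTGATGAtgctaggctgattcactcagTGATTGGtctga
H2-DMb2: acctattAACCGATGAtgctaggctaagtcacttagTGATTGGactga

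These stretches lie at chr17:34287862-34287909 on the minus strand for H2-Aa, and on the plus strand at chr17:34305770-34305817 for H2-Eb1, chr17:34153092-34153139 for H2-DMb1 and chr17:34145121-34145168 for H2-DMb2. TGATTGG started 50, 61, 63 and 92 bases before the start site of H2-Aa, H2-Eb1, H2-DMb1 and H2-DMb2. The partial X box started 28 bases before TGATTGG in H2-Eb1 and 29 bases before it in H2-DMb1 and H2-DMb2. The motifs were picked after the letters were read and were searched on both strands, where each TGATTGG also holds an inverted CCAAT. Of 32851 promoter windows of all genes, 7.82% held TGATTGG, 11.9% held AACNNNTGA, 1.79% held TGACGTCA and 0.95% held both TGATTGG and AACNNNTGA. The 2 windows given for H2-DMa, at chr17:34122582-34122881 and chr17:34125268-34125567, held neither TGATTGG nor AACNNNTGA. Both lie inside the annotated extent of the gene, and other possible start sites of H2-DMa were not searched. H2-DMb1 and H2-DMb2 shared 42 of 48 bases (87.5%) in these stretches.

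The authors made 3′ end libraries that tag every molecule with a random barcode, the unique molecular identifier (UMI), and the deposited values are CPM, a gene's UMI count scaled by the library total. CPM were whole multiples of a single step per library, so that UMI counts could be recovered. Library totals lay between 1798469 and 2215855 UMIs, and 3 UMIs, taken as the floor per library, correspond to between 1.35 and 1.67 CPM. Each captured molecule gives a tag at its 3′ end whatever its length, so levels in CPM were compared between genes without division by length, though differences in priming or mapping between genes were not tested. The ribosomal RNA precursor Rn45s took between 1.01% and 3.19% of the total with PBS and between 6.31% and 7.88% with Sema3G. The share of the total on listed genes was 77.6% and 75.6% for PBS against 71.3%, 67.1% and 65.9% for Sema3G, and both shares enter the CPM. Over the 10088 genes whose mean reached 1 CPM, limma on log2(CPM + 1) gave a median log2 fold change of -0.22, and this shift was -0.036 with CPM scaled by TMM factors. At an adjusted p below 0.05, Sema3G libraries were higher in 160 genes (1.59%) and lower in 22 (0.218%), and with TMM-scaled CPM these numbers were 322 and 3. The number called was 92 without PBS replicate 1, 856 without Sema3G replicate 1, 26 without Sema3G replicate 2 and 28 without Sema3G replicate 3.

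The BMMs held macrophage RNA at high levels, and few UMIs of dendritic and B cell markers. All 9 macrophage markers, among them Csf1r and Adgre1, had UMIs in some library, though Mertk had at most 5 in any. Their summed level was between 9789 and 12627 CPM with PBS and between 8948 and 9559 CPM with Sema3G. Most of it came from Csf1r and Lyz2. Of 12 dendritic cell markers, 5 had no UMI in any library (Flt3, Xcr1, Cd209a, Siglech and Kit), and the list held between 2 and 16 UMIs per library, between 6.04 and 8.57 CPM with PBS and between 0.922 and 6.77 CPM with Sema3G. Of 9 B cell markers, 7 had no UMI, among them Cd79a, Ms4a1 and Pax5, and the list summed to 3.30 and 2.68 CPM with PBS and 2.78, 0 and 0.922 CPM with Sema3G, at most 6 UMIs in any library. Its member Cd79b, a chain of the B cell receptor, had 5 UMIs in either PBS library against 1, 0 and 1 in the Sema3G libraries (limma adjusted p = 0.152). For Cd79b every Sema3G library was below every PBS library, as for 26.5% of all tested genes. Ebf1, the other B cell marker with UMIs, had 1 and 0 with PBS against 4, 0 and 1 with Sema3G. The 7 stromal markers, collagens among them, summed to between 24.1 and 56.6 CPM with PBS and between 21.7 and 42.3 CPM with Sema3G. None of them was at 0 in all libraries. Of 8 T cell markers, 6 had a row and 3 of these had no UMI, with sums between 2.30 and 11.1 CPM, and of 10 granulocyte and mast cell markers 4 had no UMI, with sums between 103 and 169 CPM, nearly all of it S100a8. The class II chain H2-Ab1 alone held at least 210 UMIs in each library. In whole cultures, fewer cells that express a gene and less RNA per cell cannot be told apart.

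Of the 8 genes, 7 had a UMI in some library and 6 passed the filter of a mean of 1 CPM. None of these 6 passed the adjusted p of limma in either direction, against 1.59% of all tested genes higher and 0.218% lower. All 6 had a negative log2 fold change, with a median of -0.48 against -0.22 over all tested genes. This median was -0.21 without PBS replicate 1 (5 of 6 negative, against -0.13 over all tested genes), -0.85 without PBS replicate 2 (against -0.30), and -0.20 with CPM rescaled to the listed genes without Rn45s (5 of 6 negative, against 0.04). At an unadjusted p under 0.05, 3 of the 6 were lower (Cd74, H2-Ab1 and H2-Eb1), as were 14.2% of all tested genes. That number was 1 with TMM-scaled CPM, with edgeR and TMM factors, with DESeq2, without PBS replicate 1 and without Sema3G replicate 2. It was also 1 with CPM rescaled to the listed genes without Rn45s, and 4 without Sema3G replicate 1. The shares of all tested genes in these fits are not reported here, so these numbers have no background to be read against. The 3 Sema3G libraries all lay below both PBS libraries for 2 of the 6, Cd74 and H2-Ab1, as they did for 26.5% of all tested genes, and above both for none of the 6, as for 11.9% of all tested genes. With edgeR's quasi-likelihood test on the UMI counts with TMM factors and with DESeq2, again none of the 6 passed. Without Sema3G replicate 1, 1 of the 6 passed the limma adjusted p, which was Cd74, in a fit that called 5.49% of all tested genes lower.

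**Figure D1:**
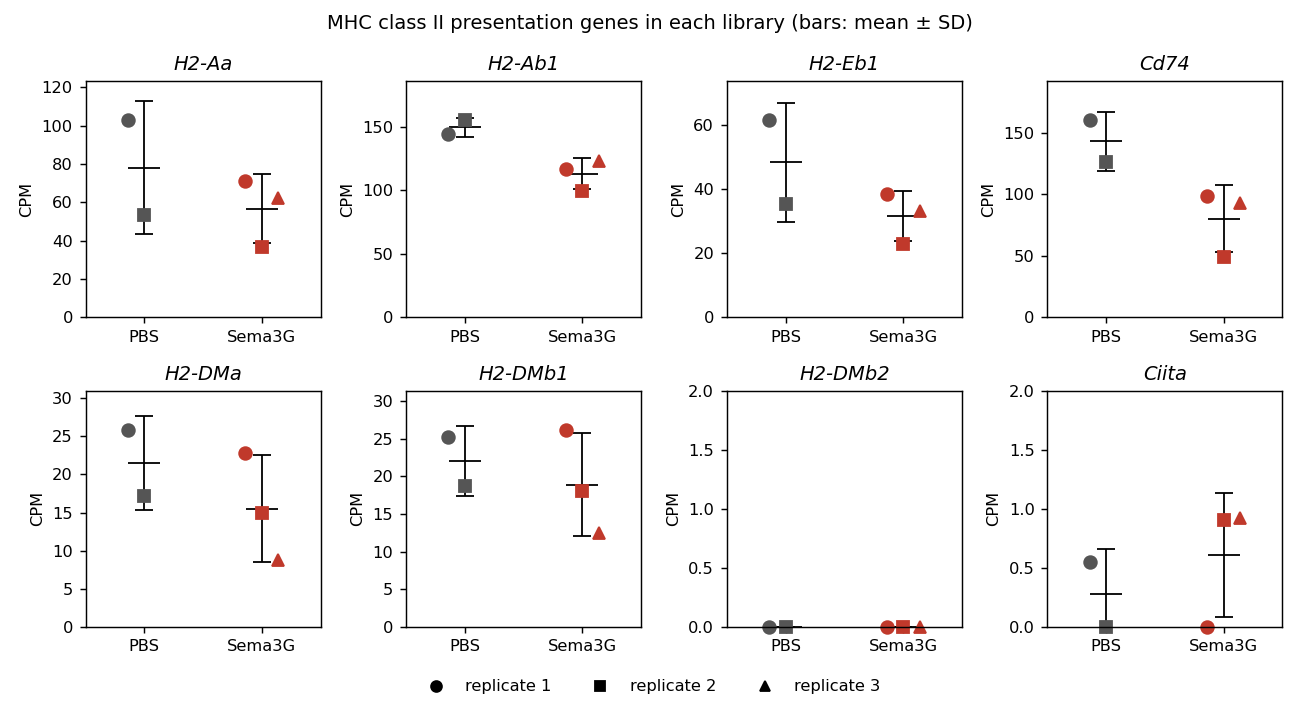
Level of each of the 8 genes in CPM (vertical axes, each from 0) in the PBS libraries (grey) and the Sema3G libraries (red), with the symbol giving the replicate number and bars the mean ± SD. Cd74 and H2-Ab1 had all 3 Sema3G points below both PBS points, H2-Aa and H2-Eb1 were lowest in Sema3G replicate 2, and H2-DMb2 was at 0 throughout.

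H2-Aa and H2-Ab1 encode the alpha and the beta chain of I-A, the class II molecule that C57BL/6 mice display. H2-Ab1 (ENSMUSG00000073421.6, chromosome 17 of GRCm38, from 34257689 to 34269419, plus strand) was at 144 and 155 CPM in the PBS libraries and at 117, 99.7 and 123 CPM in Sema3G replicates 1, 2 and 3. The PBS libraries were close to each other, and every Sema3G library was lower than both. The group means were 150 ± 7.60 CPM (SD, n = 2) for PBS against 113 ± 12.1 CPM (SD, n = 3) for Sema3G. The log2 fold change was -0.41 (standard error 0.19, 95% interval -0.80 to -0.02, limma adjusted p = 0.221). Relative to the median of all genes this is -0.18. The log2 fold change was -0.20 with TMM-scaled CPM and -0.12 with CPM rescaled to the listed genes without Rn45s.

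H2-Aa (ENSMUSG00000036594.15, chromosome 17, from 34282744 to 34287823, minus strand) was at 103 and 53.5 CPM with PBS and at 71.2, 36.6 and 62.2 CPM with Sema3G. PBS replicate 1 was the highest and Sema3G replicate 2 the lowest, while PBS replicate 2 lay below Sema3G replicates 1 and 3, so the groups overlapped. The levels of 78.1 ± 34.8 CPM (SD, n = 2) and 56.7 ± 18.0 CPM (SD, n = 3) gave a log2 fold change of -0.44 (standard error 0.28, 95% interval -1.03 to 0.16, limma adjusted p = 0.377). Without PBS replicate 1 it was 0.03, and without PBS replicate 2 it was -0.90, so its sign rested on a single PBS library.

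H2-Eb1 (ENSMUSG00000060586.11, chromosome 17, from 34305867 to 34316674, plus strand) encodes the beta chain of I-E, which C57BL/6 mice do not display because their alpha chain gene is defective. Its RNA was still counted, at 61.5 and 35.3 CPM with PBS and 38.4, 23.0 and 33.2 CPM with Sema3G. The order of the libraries was nearly that of H2-Aa, with PBS replicate 1 far above the others, and the groups overlapped through Sema3G replicate 1. The levels were 48.4 ± 18.5 CPM (SD, n = 2) and 31.5 ± 7.81 CPM (SD, n = 3), a log2 fold change of -0.58 (standard error 0.27, 95% interval -1.15 to -0.01, limma adjusted p = 0.229). Leaving out PBS replicate 1 gave -0.19, and leaving out PBS replicate 2 gave -0.97. The alpha chain gene itself, listed as H2-Ea-ps, had no UMI in any library, and neither had H2-Eb2, another E beta gene.

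Cd74, the invariant chain, was the member with the largest difference between the groups. It was at 160 and 126 CPM with PBS and at 98.4, 49.2 and 92.7 CPM with Sema3G, from between 109 and 291 UMIs per library. Each Sema3G library was below each PBS library, and Sema3G replicate 2 lay far below the rest. The levels of 143 ± 24.1 CPM (SD, n = 2) and 80.1 ± 26.9 CPM (SD, n = 3) gave a log2 fold change of -0.88 (standard error 0.25, 95% interval -1.41 to -0.35, limma adjusted p = 0.0820), or 0.543 of the PBS level on the scale of CPM + 1. Relative to the median of all genes it was -0.66, and 3.31% of the 10088 tested genes had a more negative value. The log2 fold change stayed negative under all 16 alternatives, between -1.06 and -0.57.

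The call on Cd74 turned on the treatment of the data. Its adjusted p was 0.0349 in edgeR's quasi-likelihood test with no filter on low counts (log2 fold change -0.63), where 0.336% of all tested genes were called lower, but 0.172 in the same test after the filter and 0.305 in DESeq2. Leaving out Sema3G replicate 1 gave a limma adjusted p of 0.0254 (log2 fold change -1.06), and leaving out Sema3G replicate 2 gave 0.393 (log2 fold change -0.57). Cd74 lies apart from the other chains, on chromosome 18 from 60803848 to 60812652 (ENSMUSG00000024610.15, plus strand), and its exons overlap the annotated microRNA gene Mir5107 on the same strand.

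H2-DMa and H2-DMb1 encode the chains of DM, which removes CLIP. H2-DMa (ENSMUSG00000037649.10, chromosome 17, from 34119541 to 34139101, plus strand) was at 25.8 and 17.1 CPM with PBS and at 22.8, 14.9 and 8.76 CPM with Sema3G. H2-DMb1 (ENSMUSG00000079547.4, chromosome 17, from 34153072 to 34160230, plus strand) was at 25.3 and 18.7 CPM with PBS and at 26.1, 18.1 and 12.4 CPM with Sema3G. Both were lowest in Sema3G replicate 3, whereas H2-Aa, H2-Ab1, H2-Eb1 and Cd74 were lowest in Sema3G replicate 2, and for both the PBS and Sema3G libraries overlapped.

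H2-DMa had a log2 fold change of -0.51 (standard error 0.35, 95% interval -1.24 to 0.21, limma adjusted p = 0.395), with group levels of 21.5 ± 6.15 CPM (SD, n = 2) and 15.5 ± 7.04 CPM (SD, n = 3). Without Sema3G replicate 3 it was -0.18, without PBS replicate 1 it was -0.23, and without PBS replicate 2 and Sema3G replicate 1, each in turn, it was -0.80 and -0.82. Some exons of H2-DMa overlap exons of Brd2 on the opposite strand, and the sources used here do not say whether the authors counted by strand, so its counts are uncertain. H2-DMb1 had a log2 fold change of -0.25 (standard error 0.31, 95% interval -0.90 to 0.39, limma adjusted p = 0.650), with levels of 22.0 ± 4.62 CPM (SD, n = 2) and 18.9 ± 6.88 CPM (SD, n = 3). This value is near the median of all genes and moved with each of 4 libraries left out, to -0.048 without PBS replicate 1, -0.46 without PBS replicate 2, -0.51 without Sema3G replicate 1 and -0.0022 without Sema3G replicate 3. It became 0.02 with CPM rescaled to the listed genes without Rn45s. With between 19 and 47 UMIs per library for either gene, the intervals of both folds include both no change and lower levels with Sema3G.

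H2-DMb2 encodes an alternative DM beta chain and lies next to H2-DMb1 on chromosome 17, from 34143307 to 34151555 on the plus strand (ENSMUSG00000037548.15). It had 0 UMIs in all 5 libraries, which allows at most 1.65 and 1.61 CPM with PBS and at most 1.67, 1.35 and 1.38 CPM with Sema3G. The stretches printed above show that its promoter holds the Y box and the partial X box, as that of H2-DMb1 does. The 2 genes are related, so their 3′ ends were compared, and the last 500 bases were 57.6% identical. In the last 500 bases of the longest coding transcript of H2-DMb2 in GENCODE M21, none of the 426 stretches as long as a read of 75 bases occurred in a transcript of H2-DMb1, and in H2-DMb1 67 of 426 (15.7%) occurred in H2-DMb2. Some reads could therefore come from either gene, and how the authors assigned them is not known, so the counts of both are uncertain. The ends of other transcripts of these genes were not compared.

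Ciita (ENSMUSG00000022504.10, chromosome 16, from 10480059 to 10528418, plus strand) had 1 and 0 UMIs in the PBS libraries against 0, 2 and 2 in the Sema3G libraries, all under the floor of 3 UMIs per library. The ratio of the group levels was 2.39 (exact 95% interval 0.236 to 117, counting error only). A difference in Ciita was not detectable at this depth, and Ciita was left out of the limma test by the filter. Its exons overlap those of Dexi on the opposite strand. The chains of DO, an inhibitor of DM, were also near 0. H2-Oa had 2 and 0 UMIs in the PBS libraries against 0, 1 and 2 in the Sema3G libraries, and H2-Ob had 2 and 1 with PBS and none with Sema3G.

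The order of the levels was similar in every library. H2-Ab1 and Cd74 came highest, followed by H2-Aa, H2-Eb1, the DM chains, Ciita and H2-DMb2, except that Ciita and H2-DMb2 were both at 0 in PBS replicate 2 and Sema3G replicate 1. Ratios of UMIs within a library do not depend on the library total, and show which neighbours differed. There were 1.11 Cd74 UMIs per H2-Ab1 UMI in PBS replicate 1 (exact 95% interval 0.933 to 1.31) and 0.810 in PBS replicate 2 (0.679 to 0.966). With Sema3G the ratio was 0.843 (0.686 to 1.03), 0.493 (0.388 to 0.623) and 0.753 (0.624 to 0.907) in replicates 1, 2 and 3. Sema3G replicate 2 stood lowest, and the groups overlapped. H2-DMa and H2-DMb1 did not differ beyond counting error in any library, with ratios between 0.704 and 1.02 and intervals that all include 1.

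The alpha chain of I-A varied against its beta chain more between replicates than between the groups. The ratio of H2-Aa to H2-Ab1 UMIs was 0.711 (exact 95% interval 0.586 to 0.861) in PBS replicate 1 but 0.345 (0.272 to 0.434) in PBS replicate 2. In the Sema3G libraries it was 0.610, 0.367 and 0.506, inside the range of the PBS libraries. H2-Eb1 followed the same order against H2-Ab1, with 0.426 and 0.228 under PBS and 0.329, 0.231 and 0.270 under Sema3G. H2-Aa exceeded H2-Eb1 in every library, at a nearly fixed ratio between 1.52 and 1.88, with intervals that overlap and all lie above 1.

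**Figure D2:**
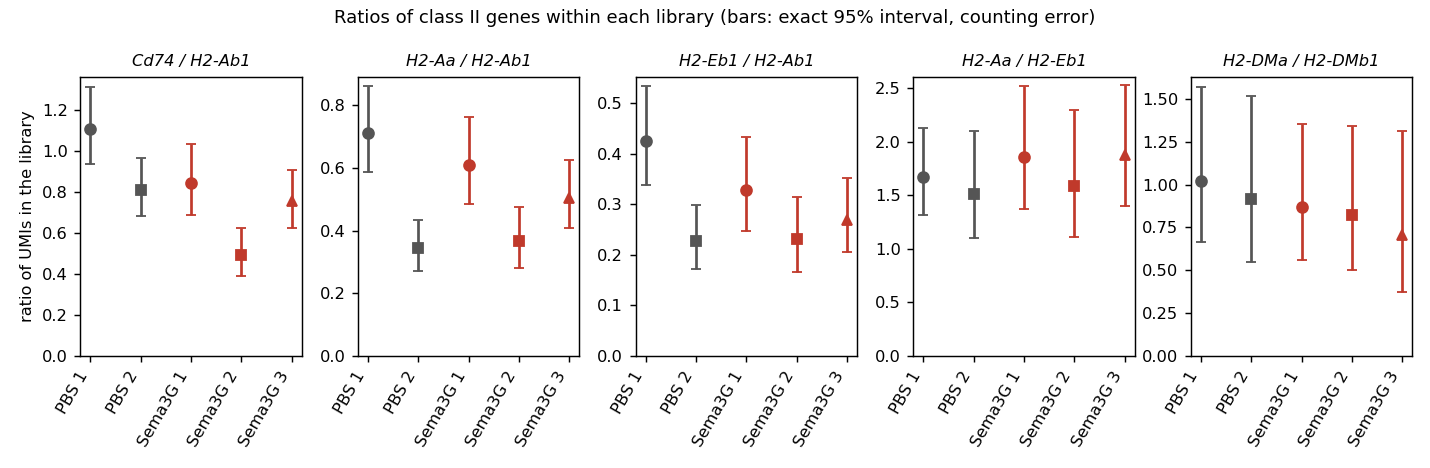
Ratio of the UMIs of a pair of class II genes within each library (vertical axes, each from 0; grey PBS, red Sema3G; bars are exact 95% intervals for counting error). H2-Aa and H2-Eb1 per H2-Ab1 were about as low in PBS replicate 2 as in Sema3G replicate 2, while H2-Aa per H2-Eb1 and H2-DMa per H2-DMb1 had overlapping intervals in all 5 libraries.

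Libraries that received the same treatment differed in class II by more than counting error. The same holds for many other genes, so the share of genes with at least as high a ratio, among those with at least 100 UMIs over both libraries, is given too. Between PBS replicates 1 and 2 the CPM ratio was 1.92 for H2-Aa (exact 95% interval 1.5 to 2.47), 1.74 for H2-Eb1 (1.27 to 2.40) and 1.27 for Cd74 (1.07 to 1.52), whereas H2-Ab1 was at 0.931 (0.785 to 1.10). The shares of genes at least as high were 3.1% for H2-Aa, 5.37% for H2-Eb1 and 27.2% for Cd74. Sema3G replicate 1 exceeded replicate 2 by a ratio of 2.001 for Cd74 (1.57 to 2.56), a level reached by 1.08% of genes, and of 1.95 for H2-Aa (1.46 to 2.60), reached by 1.31%. Sema3G replicate 1 exceeded replicate 3 in H2-DMa, at 2.60 (1.48 to 4.75), and in H2-DMb1, at 2.10 (1.28 to 3.51), while Cd74 was at 1.06 (0.863 to 1.31). The pair of Sema3G replicates 3 and 2, singled out after the values were seen, covers 3982 genes with at least 100 UMIs over both, with a median ratio of 0.980. Cd74 had the highest ratio of these 3982 genes, at 1.88 (1.48 to 2.40), and H2-Aa ranked 4 at 1.70 (1.28 to 2.27). Between them came Tmem176b at 1.73 and Tmem9b at 1.71, 2 membrane protein genes that were named after their values were seen. H2-Eb1 was at 1.44 (0.994 to 2.11) and H2-Ab1 at 1.23 (1.03 to 1.48), while H2-DMa and H2-DMb1 were at 0.588 (0.316 to 1.07) and 0.689 (0.407 to 1.15). From replicate 2 to replicate 3, the summed dendritic cell markers went from 15 to 2 UMIs and the summed stromal markers from 48 to 85 UMIs. Over all libraries the stromal sum was 56.6 and 24.1 CPM with PBS and 42.3, 21.7 and 39.2 CPM with Sema3G. Pecam1 alone held 52, 25, 49, 22 and 38 of the 103, 45, 76, 48 and 85 UMIs of this list. Cdh5, a vessel gene, had 0, 0, 1, 0 and 1 UMIs. The other stromal markers did not share 1 order. Col1a1, Col1a2 and Pdgfrb were lowest in Sema3G replicate 2, and Col3a1 was lowest in PBS replicate 2, at 2.14 CPM. Dcn, a matrix gene, was highest in Sema3G replicate 2, at 5.42 CPM. The part of stromal or dendritic cells in the class II levels was not tested.

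**Figure D3:**
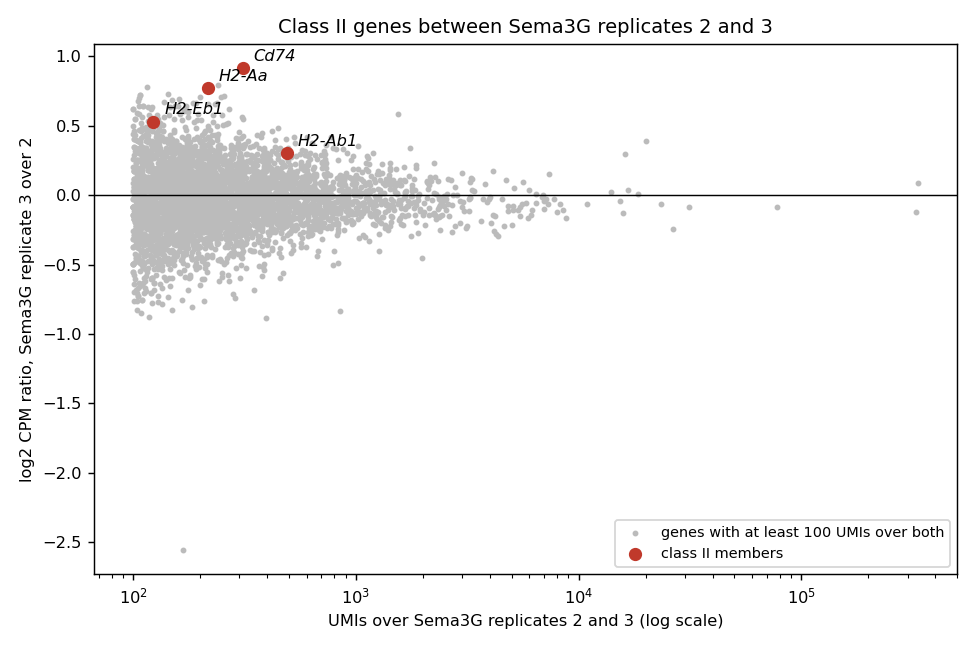
Log2 ratio of CPM in Sema3G replicate 3 over replicate 2 (vertical axis) against the UMIs over both libraries (horizontal axis, log scale) for 3982 genes (grey) and the class II genes among them (red). Cd74 lies above every other gene, H2-Aa ranks 4, and H2-Ab1 and H2-Eb1 lie above 0.

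A profile of 4 members over the 5 libraries was matched to other genes. The mean centred log2(CPM + 1) of H2-Aa, H2-Ab1, H2-Eb1 and Cd74 was 0.59 and 0.10 under PBS and 0.04, -0.67 and -0.06 under Sema3G. Among 6381 genes whose mean reached 10 CPM, the 5 nearest genes that are not members were Fkbpl, Fam188a, Rnf220, Tbc1d22a and Mars, with root mean square differences between 0.055 and 0.078 on the log2 scale over 5 libraries. Rnf220 was the most abundant of them, at 87.9 and 65.8 CPM with PBS and 64.5, 42.0 and 62.7 CPM with Sema3G. Of the members, H2-Eb1 ranked 15, H2-Aa 144, Cd74 214 and H2-Ab1 946 in nearness to their own mean, and H2-DMb1 and H2-DMa ranked 3683 and 4382.

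The factors that act on class II promoters were all counted and none passed the test. Of 7 genes (Rfx5, Rfxap and Rfxank of RFX, Nfya, Nfyb and Nfyc of NF-Y, and Creb1), all were tested and none was called in either direction, with a median log2 fold change of -0.09 against -0.22 over all tested genes. Nfya, the subunit of NF-Y that reads the CCAAT letters, was at 28.6 and 28.4 CPM with PBS and 16.7, 17.6 and 16.1 CPM with Sema3G. Every Sema3G library was below every PBS library, as for 26.5% of all tested genes, with a log2 fold change of -0.73 (standard error 0.26, limma adjusted p = 0.134). The same held for Rfxap, at 15.9 and 20.9 CPM with PBS and 11.7, 12.2 and 14.3 CPM with Sema3G, and for Creb1, at 76.4 and 74.4 CPM with PBS and 68.9, 65.4 and 73.8 CPM with Sema3G. Creb1 was the most abundant and Rfxank the least, between 1.10 and 8.03 CPM. Rfx5 lay between 8.03 and 10.01 CPM, Nfyb between 15.0 and 27.1 CPM and Nfyc between 8.57 and 13.7 CPM.

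Of 11 genes on the path from interferon-gamma to Ciita, 10 were tested and none was called. Ifng itself, the gene of interferon-gamma, had no UMI in any library. Its receptor chain Ifngr1 was at 251 and 270 CPM with PBS and 225, 208 and 186 CPM with Sema3G. The other chain, Ifngr2, was at 125 and 138 CPM with PBS and 117, 107 and 95.9 CPM with Sema3G. For both, for the kinase gene Jak1 and for Irf1, every Sema3G library was below every PBS library, as for 26.5% of all tested genes. Irf1, a transcription factor that acts on a Ciita promoter, was at 147 and 107 CPM with PBS and 101, 85.3 and 73.3 CPM with Sema3G (log2 fold change -0.54, standard error 0.21, limma adjusted p = 0.156), and the difference was -0.31 without PBS replicate 1. For Irf2 and Prdm1 every Sema3G library was above every PBS library, as for 11.9% of all tested genes, and the log2 fold changes were 0.27 (limma adjusted p = 0.395) and 0.34 (limma adjusted p = 0.385). Of the 10 tested genes 6 had a negative value, and the median of the list was -0.32. Irf1, Irf2 and Prdm1 were singled out after their values were seen.

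Most genes that prepare class II for peptides were more abundant than the chains, and Sppl2a was near the level of H2-Ab1. Of 10 genes of Cd74 and peptide processing, all were tested and none was called, 8 had a negative log2 fold change, and the median was -0.46 against -0.22 over all tested genes. Ctss, the cathepsin that makes the last cut in the invariant chain, was at 4738 and 2681 CPM with PBS and 4943, 4198 and 4210 CPM with Sema3G, with overlapping groups. Ctsh, an aminopeptidase, was at 426 and 489 CPM with PBS and 358, 280 and 252 CPM with Sema3G, all below the PBS libraries, as for 26.5% of all tested genes (log2 fold change -0.64, standard error 0.20, limma adjusted p = 0.1001). Ctsz, a carboxypeptidase, differed by -0.62 on the log2 scale (limma adjusted p = 0.127), Lgmn, the asparaginyl endopeptidase, one of -0.62 (limma adjusted p = 0.187), and Cst3, a secreted cathepsin inhibitor, one of -0.48 (limma adjusted p = 0.215). Without Sema3G replicate 1 these 4 fell with Sema3G, with limma adjusted p values of 0.0161 for Ctsh, 0.0149 for Ctsz, 0.0355 for Lgmn and 0.0301 for Cst3, and so did Ctsd, an aspartic protease of endosomes, at 0.0439. Tapbp, which loads class I molecules and lies in the class II region, also fell in that fit (limma adjusted p = 0.0356). That fit called 5.49% of all tested genes lower, and no gene of the pathway lists was called without Sema3G replicate 2 or without Sema3G replicate 3, where Ctsh had limma adjusted p values of 0.387 and 0.422. With CPM rescaled to the listed genes without Rn45s, the log2 fold changes shrank to -0.35 for Ctsh, -0.33 for Ctsz, -0.33 for Lgmn and -0.19 for Cst3. The groups of Lgmn overlapped, and its log2 fold change was -0.22 without PBS replicate 1 and -1.01 without PBS replicate 2. Sppl2a, the membrane protease that clears the last stub of Cd74, was at 144 and 147 CPM with PBS and 172, 148 and 174 CPM with Sema3G.

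Other genes in the class II stretch of chromosome 17 were looked at as neighbours. Of 9 such genes, 8 were tested and none was called, with a median log2 fold change of -0.29. Tap1, a subunit of the class I peptide transporter, was at 72.5 and 55.1 CPM with PBS and 53.4, 39.7 and 37.8 CPM with Sema3G (log2 fold change -0.54, limma adjusted p = 0.186, and -0.35 without PBS replicate 1). Its partner Tap2 was at 54.9 and 41.2 CPM with PBS and 42.3, 52.4 and 48.4 CPM with Sema3G, and Brd2 lay between 255 and 323 CPM, both with overlapping groups. Of 3 genes of class II surface turnover, Cd83 was the gene with a row under its own symbol, and it had at most 6 UMIs in any library.

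**Figure D4:**
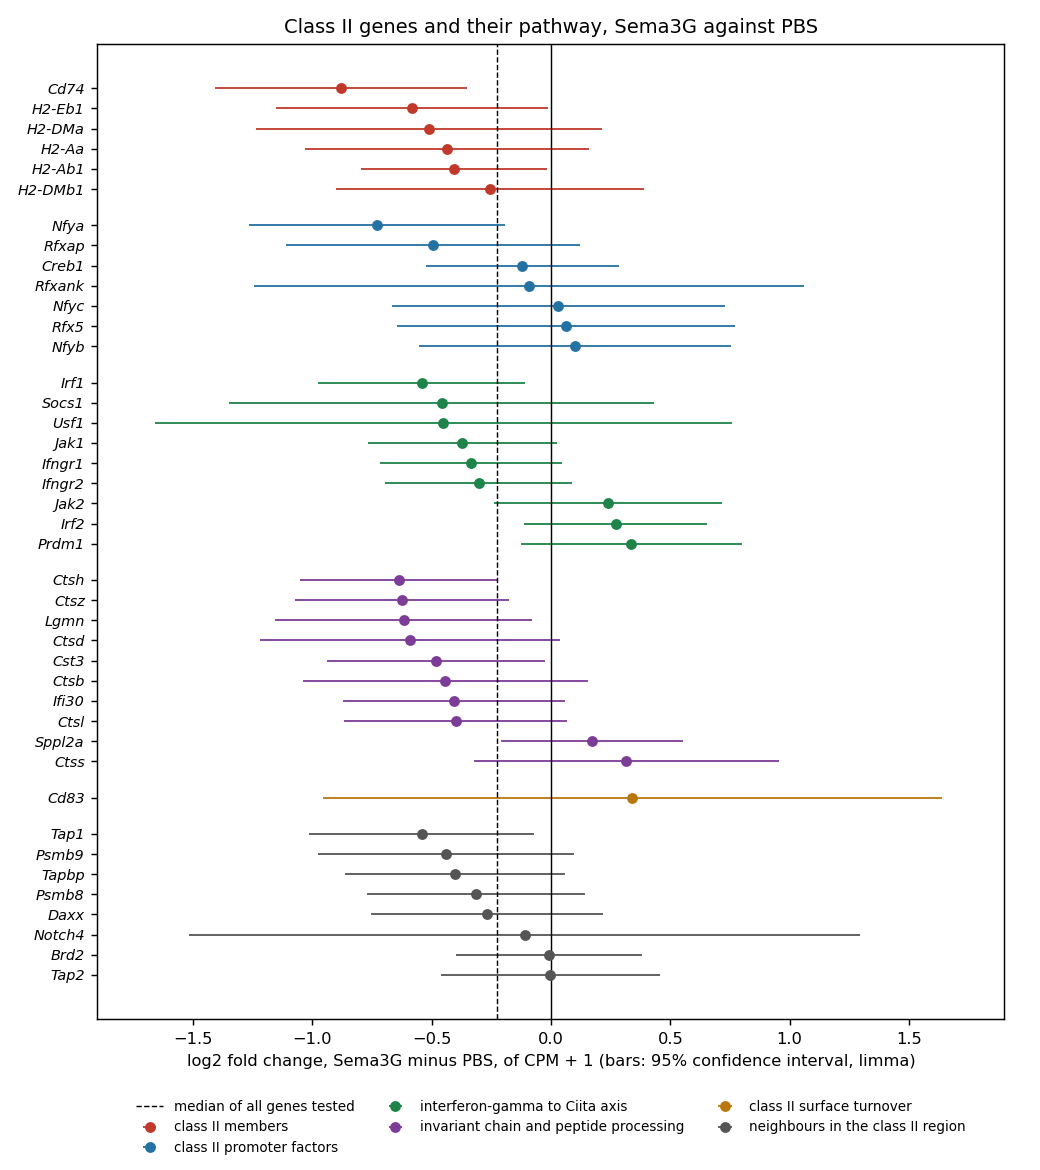
Log2 fold change of CPM + 1, Sema3G minus PBS (horizontal axis), with the 95% interval from limma, for the 6 tested members and tested genes of the pathway lists whose values are reported, with the dashed line at the median of all genes tested (-0.22). The interval of Cd74 (-1.41 to -0.35) lies wholly below that dashed line, and those of H2-Aa, H2-DMa and H2-DMb1 include 0.

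**Figure D5:**
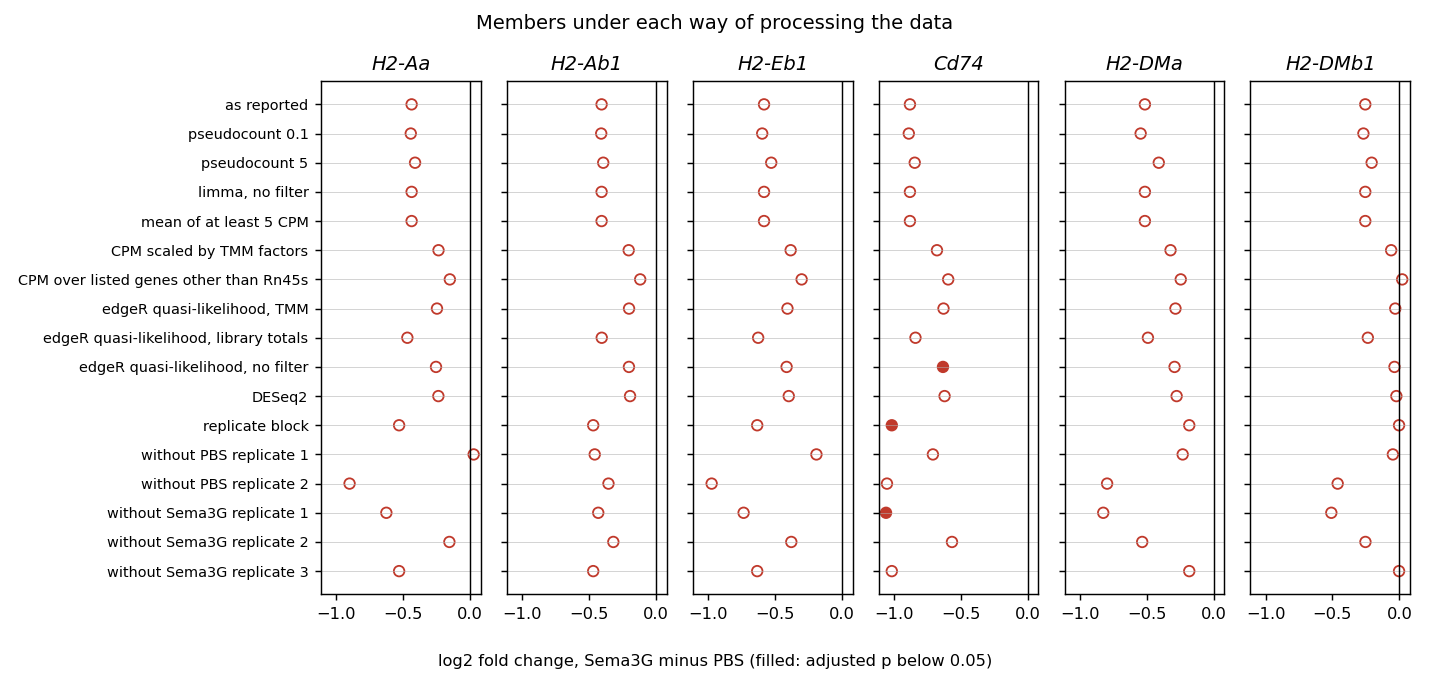
Log2 fold change of each tested member, Sema3G minus PBS (horizontal axes), as reported and under 16 alternatives (rows), with filled points where the adjusted p was below 0.05. Cd74 stayed between -1.06 and -0.57 and was filled in 3 alternatives, H2-Aa reached 0.03 without PBS replicate 1 and H2-DMb1 reached 0.02 with CPM rescaled to the listed genes without Rn45s.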

How the data were processed

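RNA of 5 BMM samples, 2 with PBS and 3 with Sema3G, was measured. The authors made 3′ end UMI libraries, mapped the reads to mm10, counted UMIs with Strand NGS and normalized them with edgeR (version 3.12 in the submitters' processing notes). The sources used here do not give the gene annotation, any filter or the use of strand. For 24419 rows the authors deposited CPM values, with p-values, q-values and ranks of their own comparison, which were not used. The CPM gave whole UMI counts (100% of values within 0.01 of a count). The UMIs on listed genes numbered between 1283029 and 1487137 per library. The symbols of 27 rows had become dates, so genes of that kind were not looked up.

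The main test was limma 3.58.1 in R 4.3.3, applied to log2(CPM + 1) with its trend option, for genes whose mean reached 1 CPM, and p-values were adjusted by Benjamini-Hochberg over all of them. Fold changes on this scale understate those of low genes. Alternatives were pseudocounts of 0.1 and 5, other filters, TMM scaling, CPM rescaled to the listed genes without Rn45s, edgeR (4.0.16) and DESeq2 (1.42.0) on the recovered counts, the replicate block, and leaving out each library. The fits were tested on simulated counts with changes larger than those of the members, so smaller changes were not tested there. The members and the gene lists were chosen with earlier results of these data known. Named are all members, the genes of the other class II and promoter factor lists, any pathway gene past the adjusted p, and the 5 nearest profiles. Further pathway genes, mostly those with an unadjusted p under 0.05, were named after their values were seen. The values of some list genes are not reported here. Positions are from GENCODE M21 on GRCm38. Intervals and floors cover counting error only, except those of limma, which cover the spread between libraries.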

Additional observations from a re-analysis of the deposited data

How the results depend on the processing

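With 2 libraries against 3 and between 19 and 291 UMIs per library, moderate changes of the members could be missed. The 6 tested members had 96 values under the alternatives. H2-Ab1, H2-Eb1, H2-DMa and Cd74 kept their sign in all 16, H2-DMb1 turned to 0.021 with CPM rescaled to the listed genes without Rn45s, and H2-Aa turned to 0.027 without PBS replicate 1, in a range of -0.90 to 0.027 with 1 library left out. No member other than Cd74 passed the adjusted p under any alternative.

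The number of genes called, 182, was 108 with limma and no filter, 325 with TMM-scaled CPM, 482 with CPM rescaled to the listed genes without Rn45s, 334 with edgeR's quasi-likelihood test and TMM factors, 598 with that test and no filter, and between 26 and 856 with 1 library left out. The number of members called, 0, was 1 with edgeR and no filter and between 0 and 1 with 1 library left out. The number of pathway list genes called, 0, was between 0 and 6 with 1 library left out, and that of marker list genes, 0, was 1 with edgeR and no filter (Mrc1, higher) and between 0 and 1 with 1 library left out (Cd68 lower without PBS replicate 2, Adgre1 lower without Sema3G replicate 1). The cause was not tested.

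In the fit with the replicate block, 573 genes, 1 member (Cd74, -1.02 on the log2 scale, limma adjusted p = 7.79e-06) and 3 pathway list genes (Ctsh, Ctsz and Lgmn, all lower) were called. Over the other alternatives the adjusted p of Cd74 lay between 0.0254 and 0.393. That fit has 1 residual degree of freedom, and Sema3G replicate 3, alone in its block, does not enter its fold changes. The labels do not say that a number marks a shared culture or animal. Same-numbered libraries had correlations of their deviations of 0.173 (replicate 1) and 0.111 (replicate 2) over 10088 genes, with 2 pairs, so the numbers were not taken to pair the samples.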
